A study of Mus musculus with 18 samples.

Results

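Collagens are the triple-helical proteins that make up most of the extracellular matrix of animals. The collagen genes described here are all gene symbols in the deposited count tables that consist of Col, a type number, the letter a and a chain number, 41 of 21881 symbols, and all 41 were measured in every library. They fall into 11 fibrillar chains, 9 FACIT chains (fibril-associated collagens with interrupted triple helices), 6 basement membrane chains of type IV, 4 beaded filament chains of type VI, 4 transmembrane chains, 3 short chain network chains of types VIII and X, 2 multiplexins (types XV and XVIII), the anchoring fibril chain Col7a1 and Col28a1. Cells came from the aorta-gonad-mesonephros (AGM) region of E11 embryos of a C57BL6 strain that carries the BRE-GFP transgene. In it, green fluorescent protein is under the control of an element that responds to BMP signals, and every group shares it. MC were the mesenchyme-enriched cells (CD31 negative, Kit negative), HPSC the hematopoietic progenitor and stem cell gate (CD31 positive, Kit positive) and EC the endothelium-enriched cells (CD31 positive, Kit negative). Each population was taken from explants cultured with BMP and Hedgehog plus cyclopamine, which blocks Smoothened in the Hedgehog pathway, from such explants without cyclopamine, and from fresh AGM. A further gate on the transgene parted BRE-GFP positive from BRE-GFP negative cells, and each of the 18 combinations was measured in 1 library of total RNA. The gates enrich cell types and do not purify them. The labels do not say how many embryos went into a library or whether libraries came from separate sorts, so p-values measure only the spread between these libraries, part of which may be technical.

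Fibrillar collagens assemble into the cross-striated fibrils of connective tissue: types I, III and V in mesenchyme and vessel walls, types II and XI in cartilage. FACIT collagens sit on the surface of such fibrils, with type IX on those of cartilage. Type IV chains form the network of basement membranes, which endothelial cells lay down beneath themselves, and the multiplexins Col15a1 and Col18a1 lie in or beside the same membranes. In the AGM, the aortic endothelium rests on such a membrane and is surrounded by mesenchyme.

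Counts assigned to genes ran from 3041249 to 21972063 per library, and 10297 to 18816 symbols had at least 1 count. Of the reads counted at genes, at no gene or as ambiguous, the share outside genes was 19.5 to 33% in cyclopamine libraries, 35 to 49.4% in explant libraries and 21.7 to 42% in fresh libraries. The 8 endothelial markers all had counts in every EC library, but so did all 8 mesenchymal markers, which summed to 569 to 4078 CPM (counts scaled to a common library size by TMM) in EC, 1738 to 4851 CPM in MC and 235 to 513 CPM in HPSC. Macrophage markers summed to 860.3 to 5722 CPM in EC and 408 to 4666 CPM in HPSC, which puts markers of other cell types in both CD31 positive gates.

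Collagen transcripts were most abundant in MC and in cultured EC and least abundant in HPSC. Together the 41 genes took 0.244 to 0.881% of gene counts in MC (median 0.477%), 0.0561 to 0.222% in HPSC (median 0.151%) and 0.121 to 1.16% in EC. The highest share of all was that of EC cyclopamine positive, the library of BRE-GFP positive EC from cyclopamine explants. Between 23 and 41 of the 41 genes had at least 1 count in a library, and 5 libraries had all of them. Fewer cells of a collagen-producing type and less collagen RNA per cell cannot be told apart in such bulk libraries.

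**Figure D1:**
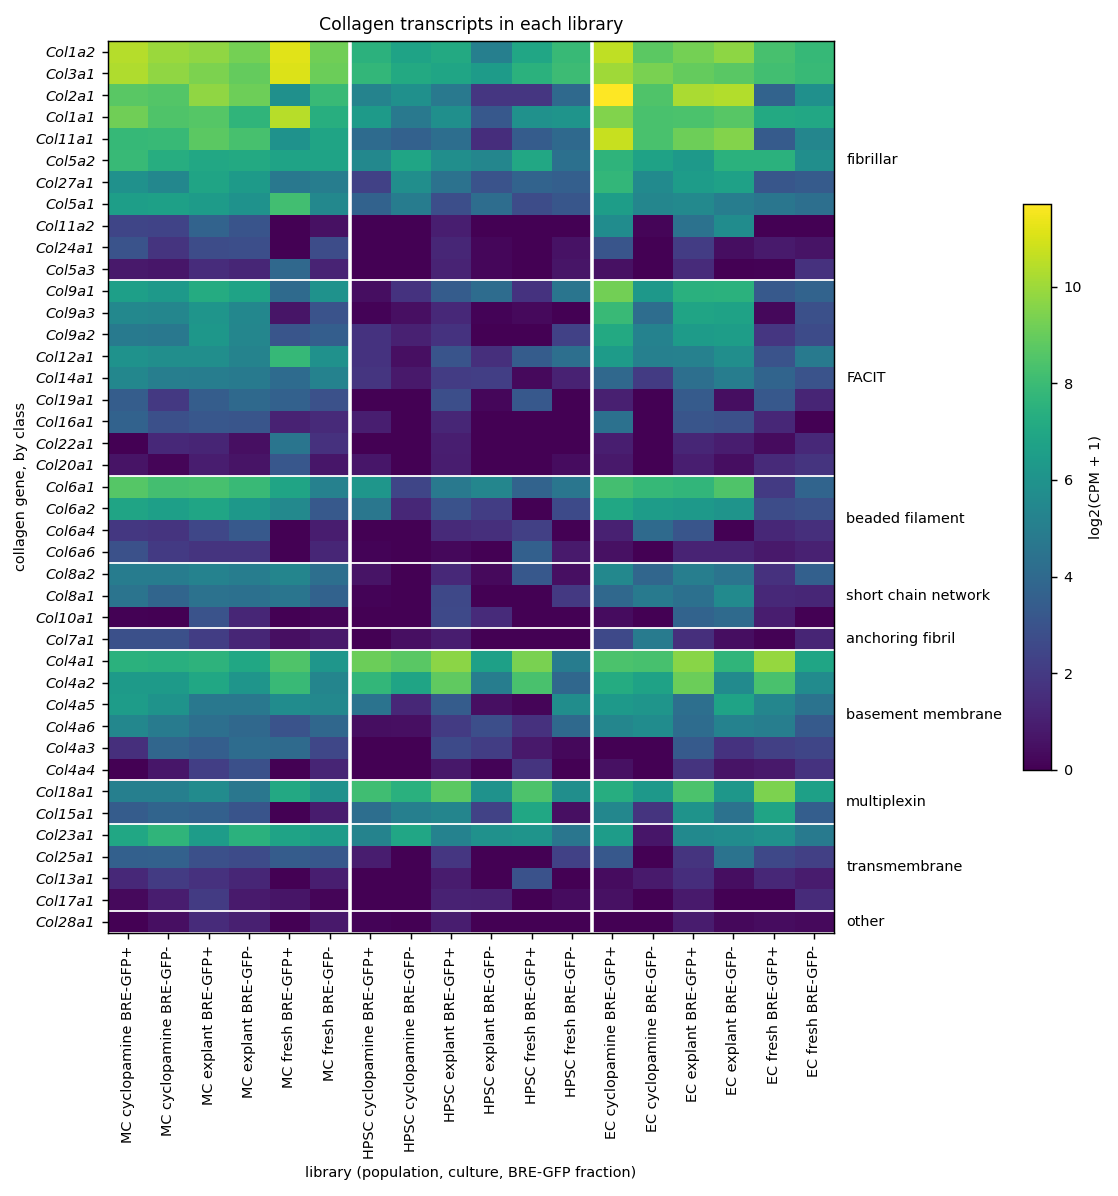
Collagen transcript levels as log2(CPM + 1), with the 41 genes in rows by class and the 18 libraries in columns by population, culture and BRE-GFP fraction (+ and -). Most fibrillar and FACIT rows are darker in the 6 HPSC columns than in the MC columns, and several are as dark in fresh EC. Col4a1, Col4a2 and Col18a1 are bright in the BRE-GFP positive HPSC and EC columns.

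The make-up of the collagen transcripts differed between populations as well. Fibrillar chains took 68.6 to 81.7% of collagen counts in MC (median 73.2%), 18.7 to 70.0% in HPSC (median 34.7%) and 30.3 to 78.3% in EC (median 64.8%). Basement membrane chains took 6.79 to 8.45% in MC, 12.3 to 56.1% in HPSC (median 40.5%) and 5.23 to 41.2% in EC (median 16.1%). Per transcript length (RPKM, which divides CPM by the length in kilobases of the gene's principal GENCODE transcript), Col1a2 was the leading collagen in 5 of 6 MC libraries, and Col2a1 in MC explant positive. With the length of all annotated exons instead, a setting chosen after seeing the data, Col3a1 led in 4 MC libraries and Col2a1 in 2, so the order of Col1a2 and Col3a1 rests on the length used. Col4a1 led in 5 of 6 HPSC libraries, with Col3a1 leading in HPSC fresh negative, with either length. The leader in EC was Col2a1 in 3 libraries with either length, and in the others Col18a1, Col1a2 or Col3a1 by the principal transcript and Col3a1 or Col4a1 by all exons.

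**Figure D2:**
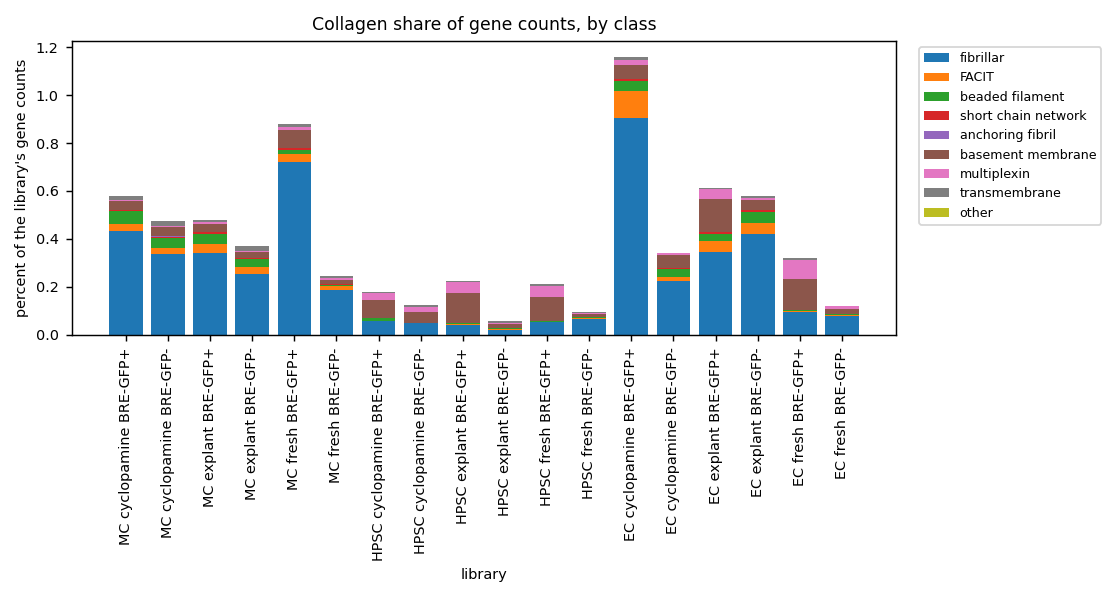
Percent of each library's gene counts that fell on collagen genes, stacked by collagen class, for the 18 libraries. The tallest bar, 1.16%, is EC cyclopamine positive, MC fresh positive follows at 0.881%, and the shortest, 0.0561%, is HPSC explant negative.

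MC against HPSC gave the most calls. Of the 41 collagen genes, 17 rose and 1 fell in MC relative to HPSC at an adjusted p under 0.05 (edgeR quasi-likelihood F test within 6 blocks of the same culture and fraction, Benjamini-Hochberg over 16231 tested genes). Among all tested genes 9.95% were called in this comparison, 5.85% higher and 4.1% lower in MC. The median log2 fold change was 3.16 over the collagens and 0.38 over all tested genes, and 37 of 41 collagens had a value above 0. By class, 7 of 11 fibrillar, 6 of 9 FACIT, 2 of 4 beaded filament, 1 of 3 short chain network and the single anchoring fibril chain rose, none of 6 basement membrane and none of 4 transmembrane chains was called in either direction, and 1 of 2 multiplexins fell.

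The chains of types I and III, the main fibrils of loose connective tissue, were far more abundant in MC than in HPSC. Col1a1 (chromosome 11, 94936224 to 94953042, plus strand, GRCm38) was at 162 to 1400.2 CPM (median 374) in MC and 8.42 to 82.6 CPM (median 57.4) in HPSC (log2 fold change 3.22 ± 0.56 (SE), edgeR adjusted p = 0.00148). Its partner chain Col1a2 (chromosome 6, 4504814 to 4541544, plus strand) was at 577 to 2355 CPM (median 935) in MC and 32.8 to 239.7 CPM (median 131) in HPSC (log2 fold change 2.98 ± 0.50 (SE), edgeR adjusted p = 0.00108). Col3a1 (chromosome 1, 45311538 to 45349706, plus strand), the chain of type III, was at 496 to 2227 CPM (median 771) in MC and 84.1 to 263 CPM (median 159) in HPSC (log2 fold change 2.50 ± 0.38 (SE), edgeR adjusted p = 0.0005). For all of these the lowest MC library lay above the highest HPSC library, and the highest value of each was that of MC fresh positive. The type V chains, which start fibrils of type I, followed: Col5a1 was at 44.0 to 286 CPM (median 89.7) in MC and 5.5 to 29.8 CPM (median 9.89) in HPSC (log2 fold change 3.06 ± 0.57 (SE), edgeR adjusted p = 0.00247). Col5a2, its partner, differed less, at 111 to 237 CPM (median 134) in MC and 19.3 to 129 CPM (median 48.6) in HPSC (log2 fold change 1.33 ± 0.38 (SE), edgeR adjusted p = 0.037), and its ranges overlapped through HPSC fresh positive and HPSC cyclopamine negative.

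The chains known from cartilage, fibrillar Col2a1 and Col11a1 and the type IX chains, also rose in MC. Col2a1, the type II chain (chromosome 15, 97975602 to 98004695, minus strand), was at 57.3 to 885 CPM (median 403) in MC and 2.62 to 57.7 CPM (median 20.4) in HPSC (log2 fold change 4.28 ± 0.77 (SE), edgeR adjusted p = 0.00188). Col11a1 was at 62.7 to 434 CPM (median 234) in MC and 1.91 to 17.6 CPM (median 13.3) in HPSC (log2 fold change 3.87 ± 0.80 (SE), edgeR adjusted p = 0.00526). Col9a3 was nearly absent from HPSC, at 0 to 1.54 CPM (median 0.165), and at 0.599 to 67.8 CPM (median 41.1) in MC (log2 fold change 6.44 ± 1.20 (SE), edgeR adjusted p = 0.00248). Col9a1 (log2 fold change 3.15, edgeR adjusted p = 0.0284) and Col9a2 (log2 fold change 4.53, edgeR adjusted p = 0.0149) moved the same way. The lowest MC library was MC fresh positive for each of these genes. Its 57.3 CPM of Col2a1 and 0.599 CPM of Col9a3 lay within the HPSC range, while for Col11a1 the groups did not overlap.

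FACIT chains of dense connective tissue and the type VI and VIII chains made up most of the other calls. Col12a1 was at 37.2 to 228 CPM (median 57.4) in MC and 0.377 to 18.3 CPM (median 4.81) in HPSC (log2 fold change 3.81 ± 0.82 (SE), edgeR adjusted p = 0.00722), without overlap. Col14a1 was at 16 to 42.2 CPM (median 31.1) in MC and 0.239 to 3.50 CPM (median 1.81) in HPSC (log2 fold change 4.38 ± 0.77 (SE), edgeR adjusted p = 0.00151), also without overlap. Col8a2, a chain of the hexagonal networks of vessel walls and cornea, was at 18.6 to 38.7 CPM (median 30.0) in MC and 0 to 8.26 CPM (median 0.467) in HPSC (log2 fold change 5.05 ± 1.08 (SE), edgeR adjusted p = 0.00687). Every MC library was above every HPSC library for Col8a2. Col6a1 and Col6a2, chains of the microfibrils that surround most connective tissue cells, rose by 2.78 ± 0.73 and 3.95 ± 0.91 on the log2 scale (SE, edgeR adjusted p = 0.0241 and 0.0111). Col6a1 stood at 34.5 to 395 CPM (median 273) in MC and 4.53 to 69.5 CPM (median 24.4) in HPSC, and Col6a2 at 8.63 to 119 CPM (median 85.7) in MC and 0 to 24.1 CPM (median 4.32) in HPSC. The remaining calls were genes of few counts: Col7a1, the anchoring fibril chain, at 0.399 to 6.35 CPM (median 2.42) in MC and 0 to 0.935 CPM (median 0) in HPSC (edgeR adjusted p = 0.0366), and Col16a1, a FACIT chain, at 1.20 to 11.7 CPM (median 6.80) in MC and 0 to 1.40 CPM (median 0) in HPSC (edgeR adjusted p = 0.0367).

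Col18a1 was the single collagen that fell in MC with edgeR. It encodes type XVIII collagen, a heparan sulfate-bearing chain of vascular and epithelial basement membranes that is cleaved to endostatin (chromosome 10, 77052178 to 77166548, minus strand). It was at 24.1 to 135 CPM (median 41.3) in MC and 54.8 to 429 CPM (median 227) in HPSC (log2 fold change -1.91 ± 0.40 (SE), edgeR adjusted p = 0.00552), and the ranges overlapped through MC fresh positive, MC fresh negative and the fresh and explant negative HPSC. Of the basement membrane chains, Col4a1 was at 70.5 to 354 CPM (median 172) in MC and 29.7 to 834 CPM (median 485) in HPSC (log2 fold change -0.82, edgeR adjusted p = 0.166). Col4a5 (log2 fold change 2.52) and Col4a6 (log2 fold change 2.38), chains of smooth muscle and epithelial membranes, had values of the opposite sign and did not pass (edgeR adjusted p = 0.161 and 0.133). Both were called higher in MC by DESeq2 (adjusted p = 0.0219 and 0.01) and limma-voom (0.011 and 0.0132). So was Col4a3 (DESeq2 0.000308, limma-voom 0.0268), and limma-voom called Col4a1 lower (0.00763). These tools called 3593 (DESeq2) and 2872 (limma-voom) of all genes.

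Marker lists moved with these differences. All 8 mesenchymal markers rose in MC relative to HPSC, and 4 of 7 cartilage markers did, with summed levels of 291 to 4096 CPM in MC and 17.5 to 329 CPM in HPSC. All 8 endothelial markers fell, with sums of 64.5 to 229.7 CPM in MC and 381 to 7544 CPM in HPSC. Macrophage markers summed to 44 to 141 CPM in MC and 408 to 4666 CPM in HPSC. Listed at 0 in at least 1 library were Matn4 in MC and Acan, Matn3, Matn4 and Twist1 in HPSC, and the part of these cells in the collagen result was not tested. Once the share of reads outside genes was a covariate 7 collagens were called, beside 517 of all genes. Of the 18 calls without the covariate, 13 held with each library left out in turn. Col6a1 missed the threshold without MC fresh positive, HPSC cyclopamine positive, HPSC explant positive or HPSC explant negative. Col5a2, Col7a1, Col9a1 and Col16a1 each missed it without MC fresh negative, MC explant negative or HPSC explant negative, and without 5 to 7 other single libraries.

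HPSC and EC, both CD31 positive, were set apart by fewer genes. Of the 41 collagens, 4 fell and none rose in HPSC relative to EC with edgeR, where 0.283% of tested genes fell and 0.32% were called in all. Col9a3 was at 0 to 1.54 CPM (median 0.165) in HPSC and 0.189 to 243 CPM (median 62.5) in EC (log2 fold change -7.09 ± 1.25 (SE), edgeR adjusted p = 0.0306). Col2a1 was at 2.62 to 57.7 CPM (median 20.4) in HPSC and 12.4 to 3375 CPM (median 780.5) in EC (log2 fold change -4.71 ± 0.83 (SE), edgeR adjusted p = 0.0306). For both chains the ranges overlapped through fresh EC, while every cultured EC library was above every HPSC library. Col11a1 was at 1.91 to 17.6 CPM (median 13.3) in HPSC and 9.43 to 1699.6 CPM (median 442) in EC (log2 fold change -4.60 ± 0.90 (SE), edgeR adjusted p = 0.039), with EC fresh positive inside the HPSC range. Col1a1 was at 8.42 to 82.6 CPM (median 57.4) in HPSC and 131 to 724 CPM (median 333) in EC (log2 fold change -2.92 ± 0.56 (SE), edgeR adjusted p = 0.0386), without overlap.

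At an unadjusted p under 0.05, 23 of 41 collagens were lower and none higher in HPSC than in EC, where 7.45% of all tested genes were lower. A log2 fold change below 0 was seen for 39 of 41, with a median of -2.48, against -0.17 over all tested genes. Col1a2 (-2.23, adjusted p = 0.078), Col9a2 (-5.04, adjusted p = 0.0824) and Col3a1 (-1.65, adjusted p = 0.083) stood just outside the threshold in the edgeR fit. The exceptions to the sign were Col18a1, at 54.8 to 429 CPM (median 227) in HPSC and 73.8 to 675 CPM (median 127) in EC (log2 fold change 0.16 ± 0.37), and the transmembrane chain Col23a1 (log2 fold change 0.22 ± 0.67). Col4a1 was close to 0 as well, at 29.7 to 834 CPM (median 485) in HPSC and 118 to 921 CPM (median 324) in EC (log2 fold change -0.25 ± 0.35), as was Col4a2 (log2 fold change -0.23 ± 0.38).

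Mesenchymal and cartilage markers moved with the difference between HPSC and EC too. In HPSC relative to EC, 4 of 8 mesenchymal and 3 of 7 cartilage markers fell, and cartilage markers summed to 17.5 to 329 CPM in HPSC and 138 to 6073 CPM in EC, with Acan, Matn1 and Matn4 at 0 in at least 1 EC library. The part of such cells in the result was not tested. No collagen was called once the share of reads outside genes was a covariate, beside 5 of all genes. Counts over single left-out libraries were 0 without EC cyclopamine positive, EC explant positive, EC explant negative, HPSC cyclopamine positive, HPSC cyclopamine negative, HPSC explant positive, HPSC explant negative, MC explant positive or MC explant negative. They were 2 without EC cyclopamine negative, MC cyclopamine positive or MC cyclopamine negative, 7 without EC fresh positive and 8 without EC fresh negative or HPSC fresh negative.

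Between MC and EC, edgeR called Col18a1 alone, which fell in MC. This was 1 of 41 collagens, where 2.29% of tested genes fell and 2.54% were called in all. It was at 24.1 to 135 CPM (median 41.3) in MC and 73.8 to 675 CPM (median 127) in EC (log2 fold change -1.75 ± 0.38 (SE), edgeR adjusted p = 0.0173), lower in MC in 6 of 6 blocks. Next by p were Col4a1, at 70.5 to 354 CPM (median 172) in MC and 118 to 921 CPM (median 324) in EC (log2 fold change -1.07 ± 0.35 (SE), edgeR adjusted p = 0.157), and Col5a1 (log2 fold change 1.41 ± 0.54 (SE), edgeR adjusted p = 0.26). limma-voom called 2 collagens, both lower in MC, Col18a1 and Col4a1 (adjusted p = 0.0111). DESeq2 called 3: Col18a1, lower in MC, and Col19a1 and Col4a3, higher in MC (adjusted p = 0.0231 and 0.0304). Col4a1 was likewise lower in MC in 6 of 6 blocks, and Col3a1 and Col23a1 were higher in MC in 6 of 6, though neither passed (edgeR adjusted p = 0.364 and 0.382). Col15a1, the other multiplexin, known from the membranes of vessels and muscle, was at 0 to 12.5 CPM (median 8.49) in MC and 2.34 to 116 CPM (median 31.3) in EC (log2 fold change -2.29 ± 1.05, edgeR adjusted p = 0.415). At an unadjusted p under 0.05, 5 collagens were higher and 3 lower in MC, where 5.45% of tested genes were higher and 5.98% lower. Endothelial markers moved with Col18a1: 7 of 8 fell in MC, with sums of 64.5 to 229.7 CPM in MC and 480.4 to 7962 CPM in EC, and none was at 0 in any library. Other lists fell in MC as well: 6 of 7 macrophage, 6 of 6 megakaryocyte and 2 of 7 hematopoietic progenitor markers. Of these, Fcgr1, Myb and Gfi1 were at 0 in at least 1 EC library, and Gp9, Gp1ba and Gfi1 in at least 1 MC library. The part of such cells in the Col18a1 result was not tested. The call was lost without EC fresh positive, EC explant negative, MC fresh positive, MC cyclopamine positive or MC explant positive (highest adjusted p = 0.0663). It was also lost with the fewest-gene library of every population left out (0.062), a setting under which Col23a1 was called instead.

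**Figure D3:**
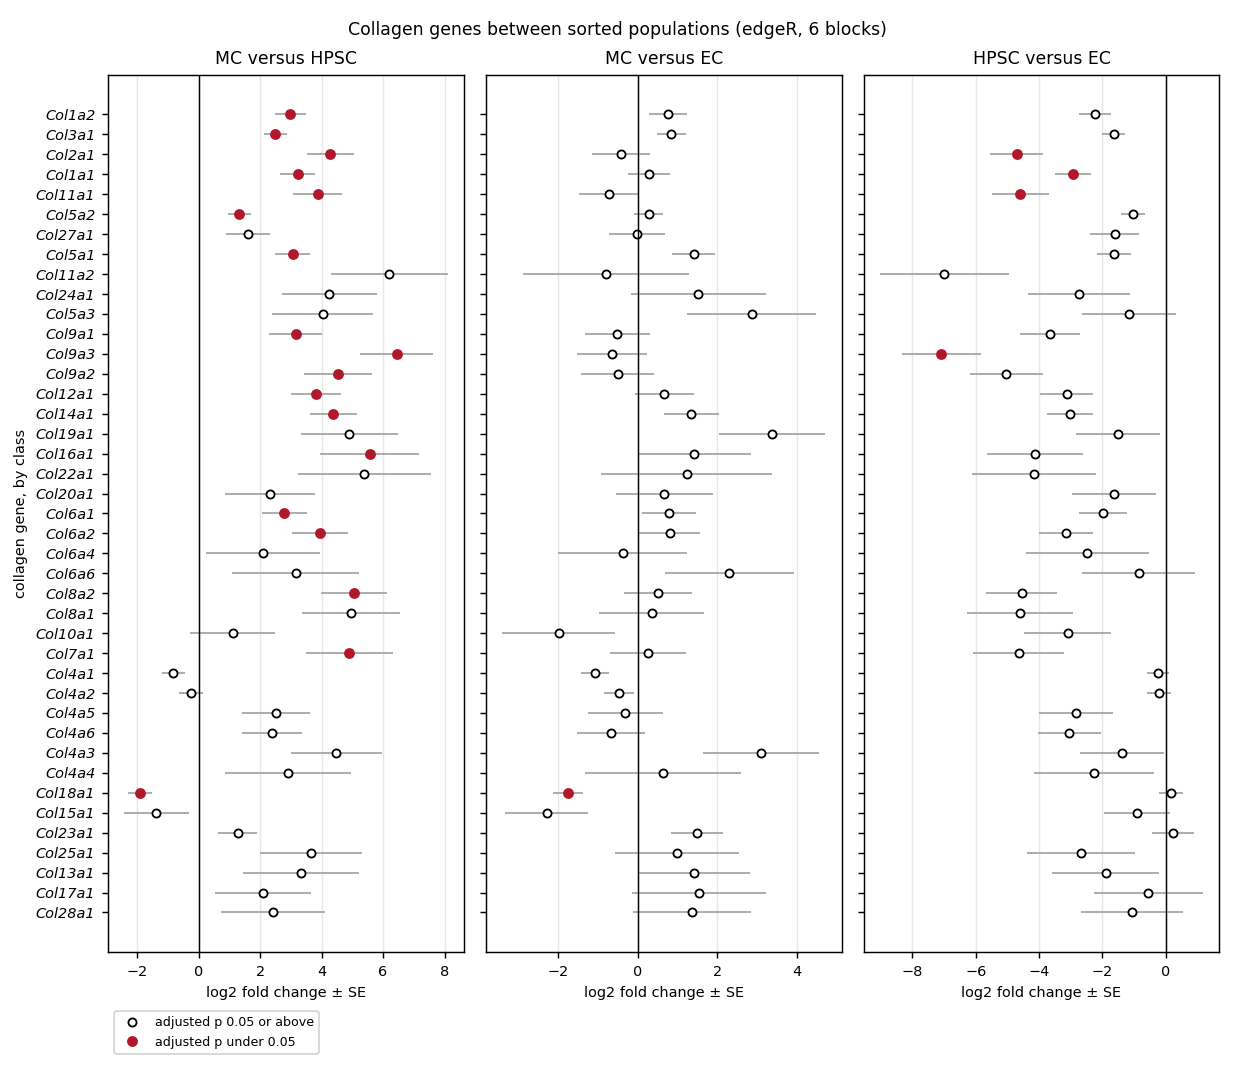
log2 fold change with its SE for each of the 41 collagen genes in MC against HPSC, MC against EC and HPSC against EC (edgeR, 6 blocks), with filled points where the adjusted p was under 0.05. In MC against HPSC 17 filled points lie right of 0 and 1, Col18a1, left of it, and in HPSC against EC 4 filled points lie left of 0.

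The cartilage-type collagens were higher in cultured than in fresh libraries in MC and EC, while in HPSC the ranges overlapped. Over the cultured and fresh libraries of MC and of EC, the ranges of Col2a1, Col9a1, Col9a2, Col9a3, Col11a1 and Col11a2 did not overlap, a description of 4 cultured and 2 fresh libraries each. The share of all tested genes with ranges apart in this way was not computed. In EC cyclopamine negative Col11a2 had 1 count, against 0 in both fresh EC libraries. Col2a1 was at 377.7 to 885 CPM in cultured MC, against 57.3 and 248 CPM in fresh MC. In EC it was at 3375 and 355 CPM with cyclopamine and 1206 and 1311 CPM in the plain explant (positive, then negative cells), against 12.4 and 58.6 CPM in fresh EC. In HPSC it was at 2.62 to 57.7 CPM in culture and at 2.63 and 15.1 CPM in fresh cells, so the ranges overlapped. Col9a3 showed the same pattern, at 40.8 to 67.8 CPM in cultured MC and 0.599 and 6.97 CPM in fresh MC, and at 17.4 to 243 CPM in cultured EC and 0.189 and 6.35 CPM in fresh EC. Col11a2, the second type XI chain, was at 0 in both fresh EC libraries and at 50.4, 0.13, 20.4 and 50.8 CPM in EC from cyclopamine positive, cyclopamine negative, explant positive and explant negative cells.

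Over all populations no collagen passed an adjusted p under 0.05 in explant relative to fresh libraries (0 of 41 with edgeR, 6 with DESeq2 and 4 with limma-voom; 0.136% of tested genes called with edgeR). At an unadjusted p under 0.05, 8 collagens were higher in explant than in fresh libraries and none lower, where 6.96% of tested genes were higher. The lowest p values were those of Col10a1 (log2 fold change 6.35 ± 1.44 (SE), edgeR adjusted p = 0.12), Col9a3 (log2 fold change 4.13 ± 1.07 (SE), edgeR adjusted p = 0.194), Col11a2 (log2 fold change 7.93 ± 2.04 (SE), edgeR adjusted p = 0.204), Col6a1 (log2 fold change 2.37 ± 0.74 (SE), edgeR adjusted p = 0.282) and Col2a1 (log2 fold change 2.79 ± 0.88 (SE), edgeR adjusted p = 0.284). Chains outside the cartilage group also had cultured ranges above and apart from the fresh ones, among them Col6a1 and Col6a2 in both MC and EC, Col5a2 and Col15a1 in MC, and Col1a1, Col1a2 and Col3a1 in EC. Cultured ranges lay below and apart from the fresh ones for Col18a1 and Col22a1 in MC, Col20a1 in EC, and Col12a1 and Col6a6 in HPSC. Col18a1 was at 24.1 to 49.7 CPM in cultured MC, against 135 and 60.5 CPM in fresh MC. Col6a1 was at 206 to 395 CPM in the cultured MC and EC libraries, against 114 and 34.5 CPM in fresh MC and 3.02 and 12.7 CPM in fresh EC. The cartilage markers moved along, at 1106 to 4096 CPM in cultured and 291 and 359 CPM in fresh MC, 1039 to 6073 CPM in cultured and 621 and 138 CPM in fresh EC, and 17.5 to 81.3 CPM in cultured and 329 and 105 CPM in fresh HPSC. Hapln1 alone made up 587 of the 621 CPM in EC fresh positive and 309 of the 329 CPM in HPSC fresh positive, where Acan, Matn1, Matn3, Matn4 and Lect1 were each between 0 and 7.61 CPM. The part of cartilage cells in these differences was not tested.

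**Figure D4:**
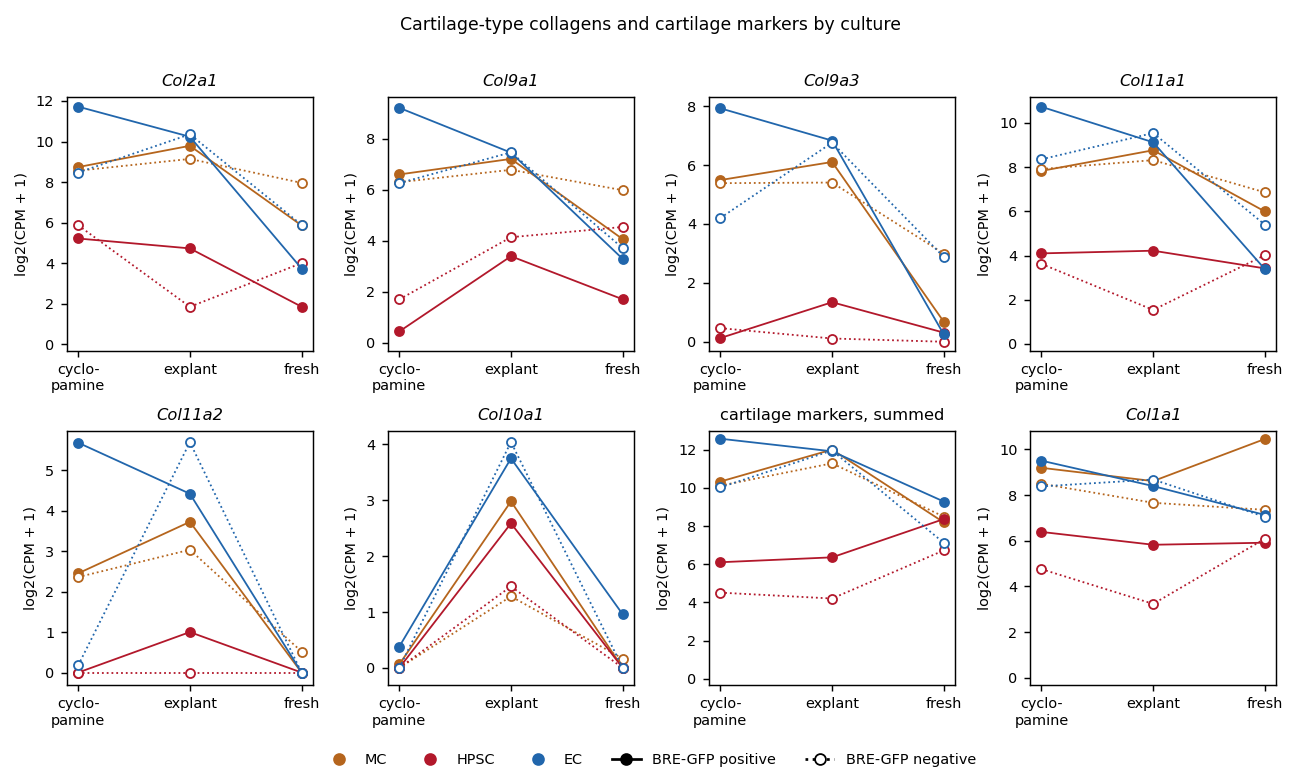
log2(CPM + 1) of Col2a1, Col9a1, Col9a3, Col11a1, Col11a2, Col10a1, the sum of 7 cartilage markers and Col1a1 in cyclopamine explants, explants and fresh AGM, by population (colour) and BRE-GFP fraction (filled and open points). The cartilage-type chains are lower in fresh than in cultured MC and EC, stay low in HPSC, and Col10a1 peaks in the explant for every population and fraction.

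Col10a1, the type X chain of hypertrophic cartilage, was found almost only in the explant without cyclopamine. It was at 6.89 and 1.43 CPM in explant MC, 5.01 and 1.75 CPM in explant HPSC and 12.4 and 15.5 CPM in explant EC (positive, then negative). In the 6 cyclopamine libraries it was at 0 to 0.301 CPM, with 4 at 0, and in the 6 fresh libraries at 0 to 0.943 CPM, also with 4 at 0. The explant libraries thus did not overlap with either of the others, on 21 to 185 counts each. Cyclopamine against explant gave log2 fold change -7.66 ± 1.52 (SE), edgeR adjusted p = 0.358, which did not pass, while DESeq2 and limma-voom gave adjusted p values of 1.09e-05 and 0.0249. Col10a1 overlaps Nt5dc1 on the opposite strand, and the strand setting of the counting is not given in the sources used here. The explant libraries also had high shares of reads outside genes. With that share as a covariate, edgeR called 0 collagens and 0 of all genes in cyclopamine against explant and in explant against fresh. It called no collagen in either without the covariate, so these counts cannot show the part of that share in the Col10a1 values. DESeq2 and limma-voom were run on the same counts and blocks.

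No collagen passed in cyclopamine relative to explant libraries, 0 of 41 with edgeR (2 with DESeq2, Col10a1 and Col4a3, and 1 with limma-voom, Col10a1), and edgeR called 0 of 16231 genes (0%). At an unadjusted p under 0.05, 1 collagen was higher (Col3a1, 0.85 ± 0.34, adjusted p = 0.49 with edgeR) and 4 were lower, where 0.715% of tested genes were higher and 7.41% lower. Besides Col10a1 the lower ones were Col4a3, Col4a4 and Col28a1, with medians of 0 CPM in cyclopamine libraries and 7.14, 1.51 and 0.904 CPM in explant libraries. Col3a1 was at 138 to 1289 CPM (median 759) in cyclopamine libraries and 84.1 to 673 CPM (median 462) in explant libraries, higher with cyclopamine in 6 of 6 blocks.

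The BRE-GFP comparison asks which genes differ between cells with and without a transcriptional response to BMP. No collagen passed in positive relative to negative cells over the 9 pairs of the same population and culture (0 of 41 with edgeR, 4 with DESeq2 and 2 with limma-voom; 0.0554% of tested genes called with edgeR). At an unadjusted p under 0.05, 7 collagens were higher in positive cells and none lower, where 3.44% of tested genes were higher. The lowest p values belonged to vascular basement membrane genes: Col18a1 (log2 fold change 1.59 ± 0.33 (SE), edgeR adjusted p = 0.167), Col4a2 (log2 fold change 2.16 ± 0.49 (SE), edgeR adjusted p = 0.265) and Col4a1 (log2 fold change 1.72 ± 0.46 (SE), edgeR adjusted p = 0.465). DESeq2 called all of these (adjusted p = 0.000759, 0.00102 and 0.0108), and limma-voom called Col18a1 and Col4a2 (0.00834 and 0.0486). Fibrillar chains followed, with Col1a1 (log2 fold change 1.07 ± 0.36 (SE), edgeR adjusted p = 0.679), Col1a2 (log2 fold change 0.74 ± 0.31 (SE), edgeR adjusted p = 0.889) and Col3a1 (log2 fold change 0.53 ± 0.22 (SE), edgeR adjusted p = 0.889), and the FACIT chain Col19a1 (log2 fold change 3.23 ± 1.26 (SE), edgeR adjusted p = 0.841).

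Col4a1 and Col4a2 encode the chains of the type IV network found in nearly all basement membranes, and they lie head to head. In GENCODE, Col4a1 (chromosome 8, 11198423 to 11312826, minus strand) and Col4a2 (chromosome 8, 11312805 to 11449287, plus strand) overlap by 22 bases, and their RefSeq start sites are 21 bases apart. Their windows of 250 bases before to 50 bases after the start site (RefSeq, GRCm38.p6) are shown with those of Col18a1, which has a window at each of its RefSeq starts, and of the type I and III genes Col1a2 and Col3a1, because these genes were among those with the lowest p values between the BRE-GFP fractions. Capitals mark CCAAT or its complement ATTGG, a common promoter element, and GGCGCC, a palindrome known to be bound by BMP-responsive SMADs. Each is written 5′ to 3′ on the gene's strand.
Col4a1, chr8:11312777-11313076, minus strand: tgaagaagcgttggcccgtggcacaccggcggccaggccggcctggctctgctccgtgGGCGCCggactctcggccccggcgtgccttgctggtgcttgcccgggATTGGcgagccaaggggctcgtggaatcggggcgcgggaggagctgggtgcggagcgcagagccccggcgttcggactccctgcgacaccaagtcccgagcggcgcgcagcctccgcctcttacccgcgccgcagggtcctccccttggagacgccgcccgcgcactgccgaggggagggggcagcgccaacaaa
Col4a2, chr8:11312555-11312854, plus strand: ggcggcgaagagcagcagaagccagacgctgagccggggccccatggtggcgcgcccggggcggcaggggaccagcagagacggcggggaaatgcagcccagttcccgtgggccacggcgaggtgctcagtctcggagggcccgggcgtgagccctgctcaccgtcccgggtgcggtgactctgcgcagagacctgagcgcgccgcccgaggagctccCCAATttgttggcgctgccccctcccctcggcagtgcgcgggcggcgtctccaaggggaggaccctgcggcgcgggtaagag
Col18a1, chr10:77166481-77166780, minus strand: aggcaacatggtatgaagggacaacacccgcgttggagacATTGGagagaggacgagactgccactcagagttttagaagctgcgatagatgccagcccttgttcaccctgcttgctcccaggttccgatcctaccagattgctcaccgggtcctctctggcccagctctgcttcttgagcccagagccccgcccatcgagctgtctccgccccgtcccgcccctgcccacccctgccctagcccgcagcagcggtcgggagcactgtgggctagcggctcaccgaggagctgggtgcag
Col18a1, chr10:77113656-77113955, minus strand: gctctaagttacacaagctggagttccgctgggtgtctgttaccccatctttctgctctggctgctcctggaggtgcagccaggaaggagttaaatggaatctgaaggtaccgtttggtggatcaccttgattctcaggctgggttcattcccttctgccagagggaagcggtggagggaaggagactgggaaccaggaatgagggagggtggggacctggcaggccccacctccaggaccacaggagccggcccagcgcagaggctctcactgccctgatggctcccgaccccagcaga
Col1a2, chr6:4505368-4505667, plus strand: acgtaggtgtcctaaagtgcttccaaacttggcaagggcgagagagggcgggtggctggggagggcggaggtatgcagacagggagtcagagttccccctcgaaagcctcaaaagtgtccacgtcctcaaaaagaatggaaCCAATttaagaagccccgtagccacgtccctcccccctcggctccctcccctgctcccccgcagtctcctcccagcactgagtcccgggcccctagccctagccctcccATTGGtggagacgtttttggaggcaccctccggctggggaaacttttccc
Col3a1, chr1:45311288-45311587, plus strand: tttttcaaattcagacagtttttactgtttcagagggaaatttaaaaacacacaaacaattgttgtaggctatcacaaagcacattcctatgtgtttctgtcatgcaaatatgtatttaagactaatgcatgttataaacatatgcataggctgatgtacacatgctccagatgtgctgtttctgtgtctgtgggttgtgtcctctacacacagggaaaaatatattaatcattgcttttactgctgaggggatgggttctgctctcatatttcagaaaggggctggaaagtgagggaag

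The Col4a1 and Col4a2 windows share 78 bases on opposite strands, and 74.0% and 73.7% of their letters are G or C, against 37.7% for Col3a1. RefSeq windows were matched for 33 of the 41 genes, 36 windows in all. Searched on both strands, CCAAT stands in 13 of these 36 (36.1%) and in 37.4% of all 32851 windows, GGCGCC in 5 (13.9%) and in 11.9%, and TATAAA in 5 (13.9%) and in 13.6%. GGGCGG, which can overlap GGCGCC, stands in 22 (61.1%) and in 35.7% of all windows. Of the genes shown, GGCGCC is in the window of Col4a1 alone. A match describes letters only.

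In every one of the 9 pairs Col4a1 and Col4a2 were higher in the positive library. In HPSC, Col4a1 was at 543 CPM in positive and 426 CPM in negative HPSC from the cyclopamine explant, 834 CPM in positive and 102 CPM in negative HPSC from the explant, and 651 CPM in positive and 29.7 CPM in negative HPSC from fresh AGM. In EC it was at 333 CPM in positive and 314 CPM in negative EC from the cyclopamine explant, 808 CPM in positive and 205 CPM in negative EC from the explant, and 921 CPM in positive and 118 CPM in negative EC from fresh AGM. In MC it was at 175 CPM in positive and 169 CPM in negative MC from the cyclopamine explant, 188 CPM in positive and 127 CPM in negative MC from the explant, and 354 CPM in positive and 70.5 CPM in negative MC from fresh AGM. The gap was widest in fresh HPSC, at 21.9 times, and narrowest in cyclopamine MC, at 1.04 times, and in EC and HPSC it was smaller in the cyclopamine pair than in the explant and fresh pairs, a difference that was not tested. Col4a2 ran in parallel, with positive to negative ratios of 1.01 to 22.8 (median 6.24), against 1.04 to 21.9 (median 3.95) for Col4a1.

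Col18a1 followed in 8 of 9 pairs. In EC it was at 155 CPM in positive and 76.2 CPM in negative EC from the cyclopamine explant, 333 CPM in positive and 73.8 CPM in negative EC from the explant, and 675 CPM in positive and 99.2 CPM in negative EC from fresh AGM. In HPSC it was at 280.4 CPM in positive and 173 CPM in negative HPSC from the cyclopamine explant, 429 CPM in positive and 62.8 CPM in negative HPSC from the explant, and 350.2 CPM in positive and 54.8 CPM in negative HPSC from fresh AGM. Within each of these populations every positive library was above every negative one. In MC it was at 32.3 CPM in positive and 32.8 CPM in negative MC from the cyclopamine explant, 49.7 CPM in positive and 24.1 CPM in negative MC from the explant, and 135 CPM in positive and 60.5 CPM in negative MC from fresh AGM, and the cyclopamine pair was level. Col15a1, whose product lies in the same membranes, reached 124 CPM in HPSC fresh positive and 116 CPM in EC fresh positive, against 0.387 and 10.5 CPM in their negative partners. It was higher in the positive library in 6 of 9 pairs and did not pass (log2 fold change 1.79 ± 1.03, edgeR adjusted p = 1).

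Endothelial markers moved with these genes. The 8 markers summed to more in the positive library in 9 of 9 pairs: 16.6 times in fresh EC, 15.6 times in fresh HPSC, 7.72 and 5.13 times in explant HPSC and EC, and 2.08 and 1.25 times in cyclopamine HPSC and EC. In MC the ratios were 3.23 (fresh), 2.0 (explant) and 1.01 (cyclopamine), on sums of 64.5 to 229.7 CPM. Each of the 8 was higher in the positive library in all HPSC pairs and in fresh and explant EC. Lower in the positive library were Kdr and Pecam1 in cyclopamine EC, and Cdh5, Tek and Pecam1 in fresh MC. Tek was also lower in explant MC, and Emcn, Esam, Egfl7 and Pecam1 in cyclopamine MC. None of the 8 markers was at 0 in any library. At an unadjusted p under 0.05, 7 of 8 were higher in positive cells, where 3.44% of tested genes were, and none passed the adjusted threshold with edgeR. Macrophage markers moved too: the 7 summed to less in the positive library in all EC pairs, at 0.564 times the negative one with cyclopamine, 0.289 times in the explant and 0.17 times in fresh cells. In HPSC the ratio was 2.54 with cyclopamine, 0.66 in the explant and 0.194 in fresh cells, on sums of 408 to 4666 CPM. All 7 were lower in the positive library in the fresh and explant pairs of EC and HPSC. In cyclopamine EC, however, Csf1r, C1qa and Fcgr1 were higher in the positive library, and in cyclopamine HPSC Lyz2 and Fcgr1 were lower. Of these markers only Fcgr1 was at 0 in any HPSC or EC library, in EC. The part of endothelial and macrophage content in the Col4a1, Col4a2 and Col18a1 values was not tested.

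**Figure D5:**
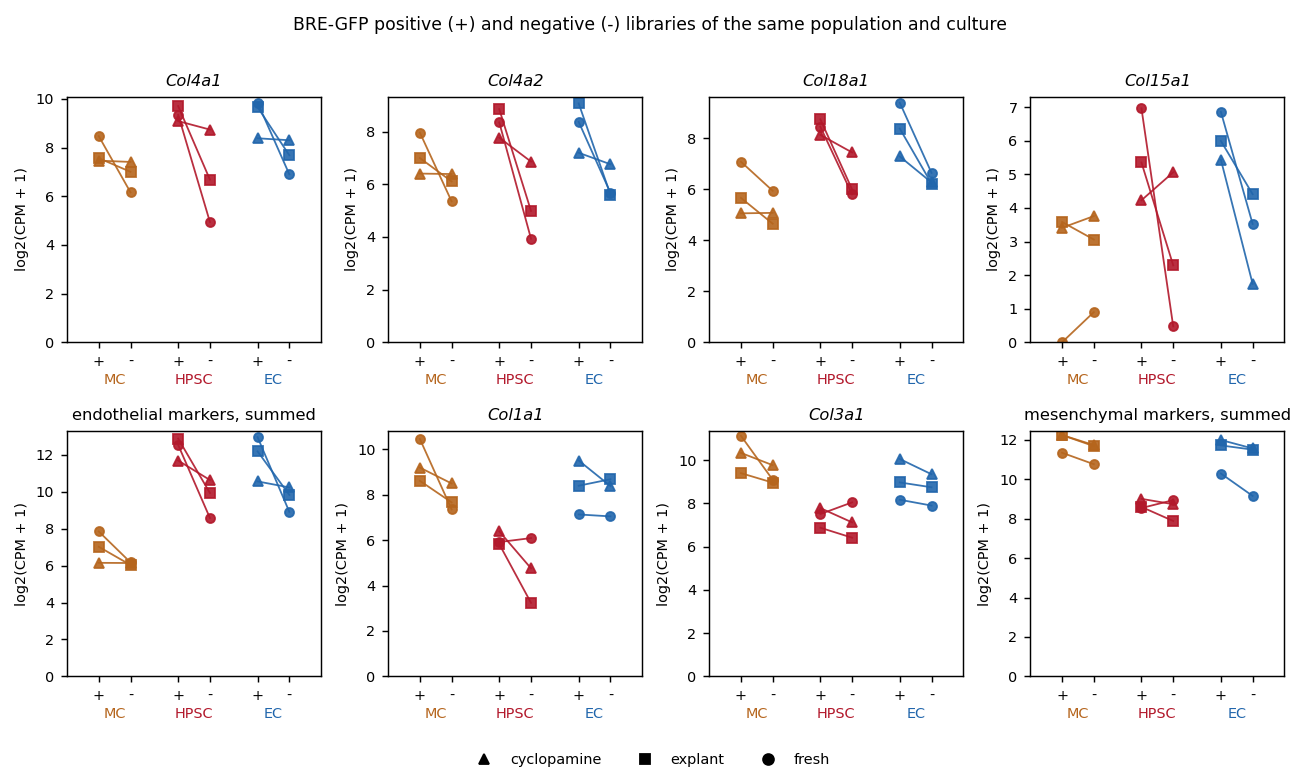
log2(CPM + 1) in BRE-GFP positive (+) and negative (-) libraries, joined within a population and culture, for Col4a1, Col4a2, Col18a1, Col15a1, the sum of 8 endothelial markers, Col1a1, Col3a1 and the sum of 8 mesenchymal markers. For Col4a1, Col4a2 and the endothelial sum all 9 lines fall to the right, steepest in fresh and explant HPSC and EC.

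The fibrillar genes of types I and III were higher in positive cells in all MC pairs, and Col3a1 also in all EC pairs. Col1a1 was at 584 CPM in positive and 359 CPM in negative MC from the cyclopamine explant, 389.5 CPM in positive and 201 CPM in negative MC from the explant, and 1400.2 CPM in positive and 162 CPM in negative MC from fresh AGM. Col3a1 was at 1289 CPM in positive and 869 CPM in negative MC from the cyclopamine explant, 673 CPM in positive and 496 CPM in negative MC from the explant, and 2227 CPM in positive and 544 CPM in negative MC from fresh AGM. The widest gap was in fresh cells (8.62 times for Col1a1 and 4.10 times for Col3a1), where the positive library had the lowest gene counts of the MC libraries (4547062). In HPSC Col1a1 was at 82.6 CPM in positive and 26 CPM in negative HPSC from the cyclopamine explant, 55.6 CPM in positive and 8.42 CPM in negative HPSC from the explant, and 59.2 CPM in positive and 67.0 CPM in negative HPSC from fresh AGM, so the positive cells were higher in both cultured pairs and near their partner in the fresh pair. Col3a1 in positive HPSC was at 1.59, 1.38 and 0.686 times its level in negative HPSC (cyclopamine, explant, fresh). In EC Col1a1 was at 724 CPM in positive and 332 CPM in negative EC from the cyclopamine explant, 335 CPM in positive and 409 CPM in negative EC from the explant, and 139 CPM in positive and 131 CPM in negative EC from fresh AGM, so the positive cells were lower in the explant pair and near their partner in the fresh pair. Col3a1 in positive EC was at 1.63, 1.17 and 1.21 times its level in negative EC (cyclopamine, explant, fresh). Mesenchymal markers summed to 1.5 times more in the positive than in the negative library in fresh MC, 1.47 times in explant MC and 1.42 times in cyclopamine MC. Dcn, Lum and Postn were higher in the positive library in all MC pairs, while other markers went the other way in some. Lower in the positive library were Pdgfra, Pdgfrb and Prrx1 in fresh MC, and Twist1 in cyclopamine MC. In explant MC, Pdgfra, Pdgfrb, Twist1, Prrx1 and Fbn1 were lower, with Pdgfra at 229 CPM in positive and 452 CPM in negative cells. Skeletal muscle markers summed to 1.93 times more in fresh, 1.97 times in explant and 2.61 times in cyclopamine positive MC, with Myod1 and Myf5 at 0 in at least 1 MC library. For sympathetic neural crest markers the ratios were 5.64, 2.32 and 1.09 (fresh, explant, cyclopamine), with none at 0, and Dbh and Sox10 were lower in cyclopamine positive MC. The part of such cells in the Col1a1 and Col3a1 values was not tested.

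Tested within each population, no collagen passed between BRE-GFP fractions. In MC, edgeR called 0 of 41 (2 higher at an unadjusted p under 0.05, where 0.136% of tested genes were; 0 with DESeq2 and 0 with limma-voom; 0% of tested genes called with edgeR), with Col1a1 (log2 fold change 1.55 ± 0.59 (SE), edgeR adjusted p = 1), Col3a1 (log2 fold change 1.0 ± 0.38 (SE), edgeR adjusted p = 1) and Col1a2 (log2 fold change 0.98 ± 0.55 (SE), edgeR adjusted p = 1) first by p. In HPSC, edgeR called 0 (8 unadjusted, where 7.6% of tested genes were; 5 with DESeq2, 0 with limma-voom; 0.037% of tested genes called with edgeR), with Col18a1 (log2 fold change 2.07 ± 0.53 (SE), edgeR adjusted p = 0.29), Col4a2 (log2 fold change 3.20 ± 0.84 (SE), edgeR adjusted p = 0.309) and Col4a1 (log2 fold change 2.68 ± 0.81 (SE), edgeR adjusted p = 0.391) first. DESeq2 called these, Col19a1 and Col8a2, and edgeR called Col4a1 and Col4a2 when genes of low counts were kept. In EC, edgeR called 0 (5 higher unadjusted, where 3.18% of tested genes were; 1 with DESeq2, Col18a1, and 0 with limma-voom; 0.0123% of tested genes called with edgeR), with Col18a1 (log2 fold change 2.0 ± 0.52 (SE), edgeR adjusted p = 0.864), Col4a2 (log2 fold change 2.26 ± 0.79 (SE), edgeR adjusted p = 1) and Col4a1 (log2 fold change 1.70 ± 0.74 (SE), edgeR adjusted p = 1) first.

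No collagen effect was shown to differ between populations. For the BRE-GFP effect edgeR called 0 of 41 (0 at an unadjusted p under 0.05, where 2.27% of tested genes were), for the explant effect 0 (5 unadjusted, where 0.998% of tested genes were) and for the cyclopamine effect 0 (2 unadjusted, where 1.56% were). Neither DESeq2 nor limma-voom called any (0 each), beside 50, 18 and 63 of all genes with DESeq2. DESeq2 gave no adjusted p for 10, 12 and 10 of the 41 collagens, in the same order, so these could not be called. edgeR called 0% of tested genes in each. Lowest by p were Col9a1, Col13a1 and Col5a1 for the BRE-GFP effect (unadjusted p = 0.0687, 0.077 and 0.0957, each with an edgeR adjusted p of 1). For the explant effect they were Col11a1, Col6a1 and Col3a1 (unadjusted p = 0.00541, 0.0142 and 0.0152, edgeR adjusted p = 1), with log2 explant effects in HPSC minus those in EC of -5.56, -4.45 and -2.01. For the cyclopamine effect they were Col9a1, Col4a3 and Col4a6 (unadjusted p = 0.0183, 0.0498 and 0.0661, edgeR adjusted p = 1).

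The remaining collagens were called in no comparison with edgeR. DESeq2 or limma-voom called some of them, such as Col8a1, which both called lower in HPSC than in MC and in EC. The transmembrane chain Col23a1 was at 84.5 to 201 CPM (median 118) in MC, 23 to 122 CPM (median 48.6) in HPSC and 0.65 to 88.6 CPM (median 48.3) in EC, where the low end was EC cyclopamine negative. Col25a1 reached 21 CPM in EC explant negative, and Col13a1 and Col17a1 stayed under 10 CPM in all 18 libraries. Of the type IV chains of specialised membranes, Col4a5 was at 24.5 to 87.4 CPM (median 47.2) in MC, 0.12 to 53.5 CPM (median 5.60) in HPSC and 18.4 to 109 CPM (median 54.6) in EC, and Col4a6 was at 6.99 to 41.6 CPM (median 16.6) in MC, 0.365 to 14.8 CPM (median 2.61) in HPSC and 8.87 to 51.6 CPM (median 33.2) in EC. Col4a3 and Col4a4, chains of the kidney's filtration membrane, stayed under 20 CPM everywhere. Of the fibrillar chains, Col27a1, a chain of developing cartilage, peaked at 214 CPM in EC cyclopamine positive, while Col24a1 and Col5a3 stayed under 20 CPM. Of the FACIT chains, Col22a1 reached 22.2 CPM and Col20a1 8.19 CPM in MC fresh positive, and Col19a1 stayed under 20 CPM. Col8a1 was at 11.8 to 22.2 CPM (median 19.7) in MC, 0 to 4.87 CPM (median 0.0456) in HPSC and 1.42 to 48.3 CPM (median 16.8) in EC, and Col6a4, Col6a6 and Col28a1 stayed under 20 CPM. All 41 genes passed the filter on low values, which required 0.796 CPM in at least 3 libraries, and 18 of them were called in at least 1 comparison by edgeR.

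Genes of collagen synthesis, crosslinking and binding followed the populations in part. Of 42 such genes 41 were tested: 13 rose and 1 fell in MC relative to HPSC, 2 fell in HPSC relative to EC, 2 fell in MC relative to EC, and none passed between BRE-GFP fractions or cultures with edgeR. With an unadjusted p under 0.05, 7 were higher in BRE-GFP positive cells, where 3.44% of all tested genes were, 8 were higher in the explant, where 6.96% were, and 1 was lower with cyclopamine, where 7.41% were. Lox, which crosslinks collagen fibrils, was at 8.39 to 26.4 CPM in MC and 0 to 1.60 CPM in HPSC (log2 fold change 6.67 ± 1.16 (SE), edgeR adjusted p = 0.0015), and it also fell in HPSC relative to EC (log2 fold change -6.21 ± 1.14 (SE), edgeR adjusted p = 0.0306). Its relative Loxl3 moved in the same directions (4.31 for MC against HPSC, -3.79 for HPSC against EC; edgeR adjusted p = 0.00249 and 0.0489). In MC relative to HPSC the collagen receptors Ddr2 (4.16), Ddr1 (4.12) and Itga11 (5.20) rose, as did the procollagen proteinase gene Bmp1 (1.97) and its enhancer Pcolce (2.45). So did the hydroxylase genes Plod2 (2.52), P4ha2 (2.22) and Lepre1 (2.77) and the collagen chaperone gene Serpinh1 (1.41), all as log2 fold changes with edgeR adjusted p values of 0.00287 to 0.0266. Lair1, a collagen receptor of leukocytes, fell in MC relative to HPSC (-5.77, edgeR adjusted p = 0.00468) and to EC (-6.22, edgeR adjusted p = 0.00499), and Gp6, the collagen receptor of platelets, fell in MC relative to EC (-7.30, edgeR adjusted p = 0.00483).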

How the data were processed

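RNA from sorted cells was prepared with the mirVana kit and the SMARTer protocol and sequenced on Illumina libraries, per the labels' protocols. The authors deposited whole-number counts of reads per gene symbol for each of the 18 libraries, and TopHat, Cufflinks, HTSeq and the mm10 build are named in the submitters' processing notes without versions. Which annotation was counted, and whether by strand, is not given in the sources used here. Rows for reads at no gene (19.5 to 49.4% of reads) or ambiguous were left out of totals and tests.

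After TMM scaling, counts were tested by quasi-likelihood F tests in edgeR 4.0.16 (R 4.3.3; Benjamini-Hochberg over 16231 of 21881 symbols with at least 0.796 CPM in 3 or more libraries). All 18 libraries entered each fit, blocked by culture and fraction for populations (6 blocks), by population and culture for BRE-GFP fractions (9 blocks), and by population and fraction for cultures (6 blocks). BRE-GFP effects within a population and their differences came from 1 model with a term per population. With 1 library per combination, residual spread is how a tested difference varies from block to block (6 to 10 residual degrees of freedom). It can hold real differences of an effect between blocks, and counting depth adds to it most for genes of few counts. Alternatives were DESeq2 1.42.0, limma-voom (limma 3.58.1), DESeq2 size factors in edgeR, no filter, additive terms in place of blocks, the share of reads outside genes as a covariate, leaving out each library and, for RPKM, the length of all annotated exons. Code was tested on simulated counts.

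Collagens were classed by type number, and gene positions are from GENCODE M21 (GRCm38, matched by symbol for all 41). CPM levels compare a gene between libraries, and RPKM, over the length of the longest transcript of the best APPRIS rank, was used between genes. In each class up to 4 members of highest mean RPKM and all called members are described. The members, classes and marker lists were chosen with earlier results of these data known. Figures were drawn with matplotlib 3.10.9.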

Additional observations from a re-analysis of the deposited data

Results flagged for a closer look

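Sets of 6 values in a population were examined for collagens of at least 10 CPM on average there. Only collagens called or among the highest by mean RPKM in their class were taken, beside the sum of all collagens. Of 62 sets, 8 had a library set apart from the other 5 by a gap large for the set's range (Dixon's criterion). The criterion's rate of about 1 of 20 sets is for independent, normally distributed values. These CPM values span cultures and BRE-GFP fractions, and sets share libraries, so 8 of 62 cannot be compared with that rate. MC fresh positive was the high library for 4 of the 8 sets: Col1a1 at 1400.15 CPM with the other MC libraries at 162 to 584 CPM, Col5a1 at 286.022 CPM with the others at 44.0 to 101 CPM, Col12a1 at 228.098 CPM with the others at 37.2 to 61.5 CPM, and Col18a1 at 134.622 CPM with the others at 24.1 to 60.5 CPM. That library had the lowest gene counts (4547062) and the fewest detected genes (12028) of the MC libraries. Col5a2 was set apart in MC cyclopamine positive, at 237.427 CPM, with the others at 111 to 156 CPM. Col15a1 reached 124.221 CPM in HPSC fresh positive, with the others at 0.387 to 39.9 CPM. EC cyclopamine positive held 89.8768 CPM of Col5a1, with the others at 18.2 to 44.6 CPM, and 594.813 CPM of Col9a1, with the others at 8.80 to 177 CPM. All 8 were high values in BRE-GFP positive libraries. The gaps were taken on CPM without a log, a scale that stretches high values, so no conclusion is drawn from the shared side.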

How the results depend on the processing

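The sign of the fold change was checked for the collagens that edgeR called, in the comparisons where it called them. A few named genes were added for the BRE-GFP and culture comparisons. None of these fold changes changed sign under an alternative. Values near 0, such as those of Col18a1, Col4a1 and Col4a2 in HPSC against EC, were not checked. The calls in MC against EC did change direction: 1 lower with edgeR, 2 higher (Col19a1 and Col4a3) and 1 lower with DESeq2, and 1 higher (Col23a1) and 0 lower without the fewest-gene libraries. edgeR made no more calls than DESeq2 or limma-voom in any comparison. DESeq2 called 28 collagens in MC against HPSC (edgeR 18), 3 in MC against EC (1), 19 in HPSC against EC (4), 4 between BRE-GFP fractions, 6 in explant against fresh, 2 in cyclopamine against explant, 1 between fractions of EC and 5 between fractions of HPSC (0 each with edgeR). limma-voom called 28, 2, 10, 2, 4 and 1 in the first 6 of these. Over all genes, the calls in those 8 comparisons were 3593, 1233, 795, 366, 465, 172, 401 and 929 with DESeq2 and 1615, 413, 52, 9, 22, 0, 2 and 6 with edgeR, and in the first 6 they were 2872, 781, 228, 73, 165 and 31 with limma-voom. Without a filter on low counts, 7 collagens were called in HPSC against EC and 2 between the fractions of HPSC. With the share of reads outside genes as a covariate, 7 were called in MC against HPSC, beside 517 of all genes, and 0 in HPSC against EC, beside 5. With the fewest-gene library of each population left out, a setting chosen after seeing the data, 1 was called in HPSC against EC (Col9a3) and 1 between the fractions of HPSC (Col4a2). The cause of these changes was not tested. Leaving out 1 library at a time gave 13 to 21 calls in MC against HPSC, 0 to 1 in MC against EC, 0 to 8 in HPSC against EC and 0 in the others. DESeq2 size factors in edgeR gave the same counts and shifted the median of all genes by at most 0.0422 (log2). Additive terms in place of blocks gave 17 calls in MC against HPSC and 5 in HPSC against EC. Depth limits genes such as Col10a1, with at most 185 counts in a library.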

Other observations

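Col1a1 ranged from 8.42 to 1400.2 CPM over the 18 libraries, while the CPM of its partner chain Col1a2 was 1.30 to 4.30 times that of Col1a1 in each. Col4a1 ranged from 29.7 to 921 CPM, while Col4a2 was 0.234 to 0.701 times that of Col4a1, not corrected for transcript length. The type IV genes lie in pairs on opposite strands: Col4a1 and Col4a2 overlap by 22 bases on chromosome 8, Col4a4 and Col4a3 are 71 bases apart on chromosome 1, and Col4a6 and Col4a5 are 1308 bases apart on chromosome X (GRCm38). Transmembrane collagens, mostly Col23a1, which is known as a cell-surface collagen, took 3.14% of collagen counts in MC, 3.20% in HPSC and 1.07% in EC at the median, and EC cyclopamine negative held 0.65 CPM of Col23a1 beside 88.6 CPM in its positive partner.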
